A study of Mus musculus with 26 samples.

Results

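The genes described here are Trp53, which encodes the transcription factor p53, and 9 of its known regulators and targets: Mdm2, Mdm4, Cdkn1a, Ccng1, Bax, Bbc3, Gadd45a, Sesn1 and Trp53inp1. Trp53 was selected on its level in these data, because it was higher in both libraries of mice with escalating cocaine intake, and the other 9 were added for their known place in the p53 pathway. The 10 genes are part of 31977 genes that could be followed in every library, and all 10 passed the filter on low counts.

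p53 is held at low levels by Mdm2 and Mdm4, which bind it, block its activity and, in the case of Mdm2, mark it for degradation. DNA damage and other stresses release p53, mostly through changes to the protein rather than to its mRNA, and p53 then switches on genes that stop the cell cycle, repair DNA, alter metabolism or start apoptosis. Mdm2 is itself such a target, which closes a feedback loop, and in neurons, which do not divide, p53 is best known for its part in stress responses and cell death.

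The libraries are TRAP (translating ribosome affinity purification) RNA-seq from dorsal striatum of adult mice of the Drd2-TRAP line CP101, on a FVB/N-Swiss Webster background crossed to C57BL/6 for a minimum of 9 generations. The transgene Drd2-EGFP/Rpl10a tags a ribosomal protein in cells that use the Drd2 promoter, mainly D2 medium spiny neurons, although other striatal cells that express Drd2, such as cholinergic interneurons, can carry it too. All mice self-administered saline or cocaine intravenously under long access. Purified libraries came from 5 groups: saline (n = 3), non-escalating cocaine (n = 4), escalating cocaine (n = 2), saline followed by withdrawal (n = 5) and non-escalating cocaine followed by withdrawal (n = 9). The 3 input libraries of total RNA came from the saline, non-escalating and saline withdrawal conditions, 1 from each. No label used here states exact ages, how long withdrawal lasted or whether each library is a separate animal. The p-values therefore reflect library-to-library spread, which may be partly technical.

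Gene counts ran from 3279457 to 19122303 in the purified libraries, and the 2 escalating libraries were the deepest at 17373355 and 19122303. Library numbers in the titles form 2 sets: set A holds every library of the 3 groups without withdrawal and 6 purified withdrawal libraries, and set B holds the other 8 purified withdrawal libraries. Titles in set A mostly mark the library as a copy of a lower number, a mark the labels leave unexplained. Saline withdrawal set A replicate 2 lacks the mark, has the smaller gene annotation of set B and was placed in set A by its number alone. It was also the shallowest purified library at 3279457 gene counts. Set B purified libraries had 3578445 to 5849243, and the other purified set A libraries 6564551 or more. The D2 neuron label was checked against markers: 6 of 8 D2 neuron markers were called higher in purified than in input RNA, with Drd2 itself at 804 to 8852 CPM (counts scaled to library size) against 411 to 550. All 6 D1 neuron markers were lower in purified RNA, 4 of them called, and calls for lower levels were also made for 6 of 8 astrocyte, 7 of 8 oligodendrocyte and 1 of 5 tested microglia markers. All 11 endothelial and mural markers were higher in purified RNA, 4 of them called, and their summed level ran from 106 to 9756 CPM among purified libraries against 131 to 669 in the inputs. Saline withdrawal set A replicate 1 stood apart: its D2 markers summed to 2065 CPM, inside the range of the inputs (2010 to 2218), and it had the highest endothelial sum. In bulk RNA of this kind, fewer cells of a type and less RNA per cell cannot be told apart.

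Sequence at the start of 3 of the genes is shown because p53 acts on its targets through DNA elements, which may lie there or elsewhere. It binds a pair of half-sites of 10 bases, a motif that reads the same on both strands, and a full element was searched for as 2 half-sites up to 13 bases apart with at most 1 mismatch outside the fixed C and G. The search covered RefSeq windows of 300 bases, from 250 before to 50 after each annotated start (GRCm38.p6). Elements outside these windows were not searched for, so a gene without a match here may have one elsewhere. At least 1 half-site was present in 8.36% of all 32851 windows and a full element in 0.627%. Of the 10 genes, 9 had windows (14 in all), Trp53inp1 being the gene without one, 7 held a half-site, and the full element was found for Cdkn1a and Ccng1. The Cdkn1a stretch lies at chr17:29090856-29090963 on the plus strand, and the Ccng1 stretch at chr11:40755432-40755531 on the minus strand. The third stretch, chr11:69580256-69580358 on the plus strand, is the whole gap between the annotated starts of Trp53 and its neighbour Wrap53, which runs the other way. Capitals mark half-sites, and a match describes letters only.
Cdkn1a: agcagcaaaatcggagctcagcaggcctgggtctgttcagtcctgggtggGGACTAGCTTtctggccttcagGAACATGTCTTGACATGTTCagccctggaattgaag
Ccng1: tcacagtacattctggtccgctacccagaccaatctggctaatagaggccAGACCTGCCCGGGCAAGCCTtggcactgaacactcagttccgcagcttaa
Trp53 to Wrap53 gap: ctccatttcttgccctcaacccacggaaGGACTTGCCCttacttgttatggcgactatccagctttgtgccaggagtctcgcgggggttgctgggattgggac
The Cdkn1a stretch holds 3 half-sites that form 2 overlapping elements. Of these, 1 is without mismatch and has 12 bases between its half-sites, and 1 has 1 mismatch and no gap and ends 32 bases before the annotated start of that window. Cdkn1a has another window farther downstream (chr17:29093519-29093818), for another annotated start, and it held 0 half-sites. The Ccng1 element has 1 mismatch and no gap and ends 176 bases before the start. The gap shared by Trp53 and Wrap53 spans 103 bases and holds 1 half-site and no full element.

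All 10 genes were detected in purified RNA, at levels that differed widely between genes. Per kilobase of exon, Mdm2 was the most abundant at 19.2 ± 6.49 CPM per kb (SD, n = 23 libraries), followed by Sesn1 at 14.4, Trp53 at 14.1 and Mdm4 at 13.5. Cdkn1a at 9.27, Ccng1 at 7.37, Trp53inp1 at 5.58 and Bax at 4.50 CPM per kb formed a middle range. The apoptosis gene Bbc3 (1.16) and the DNA damage gene Gadd45a (1.15) were the lowest, with 0 to 103 and 1 to 135 counts per purified library. Several neighbours in this order changed places from library to library: Trp53 lay above Mdm4 in 9 of 23 libraries, Cdkn1a above Ccng1 in 14, and Bbc3 above Gadd45a in 10. Bax lay above Bbc3 in 22 of 23.

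**Figure D1:**
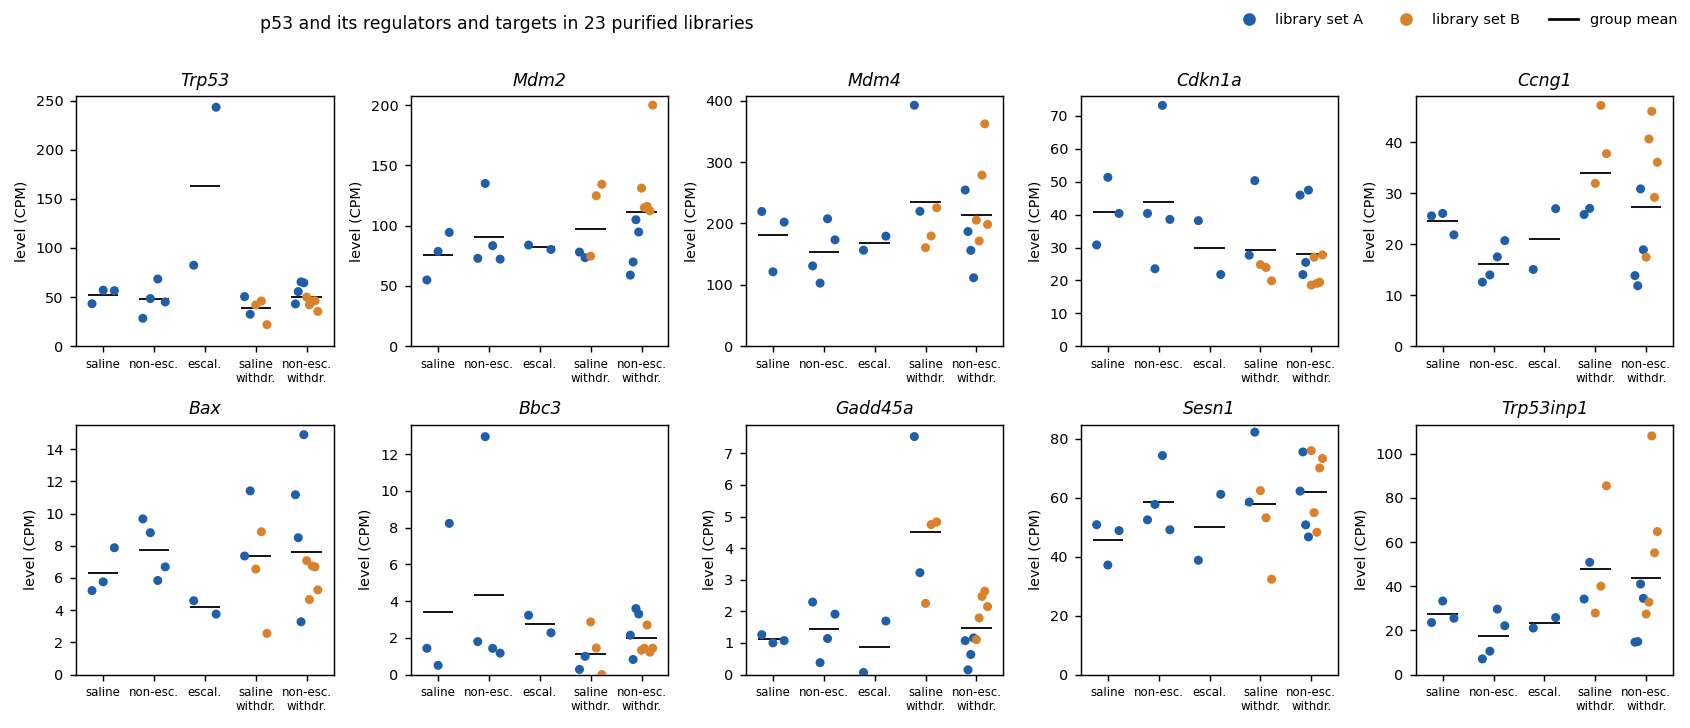
Level of each of the 10 genes (CPM, linear axis from 0) in the 23 purified libraries by group, with points coloured by library set and a line at the group mean. Trp53 stands at 243 CPM in 1 escalating library and 82.4 in the other, the other 9 genes have no escalating library as far above the rest, and the set B points of Mdm2 and Ccng1 sit high within the withdrawal groups.

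Trp53 (chr11:69580359-69591873, plus strand, GRCm38) was present in the 2 escalating libraries at 82.4 and 243 CPM. In saline libraries it lay at 43.2, 56.5 and 57.0 CPM, in non-escalating libraries at 28.4, 45.0, 48.5 and 68.4 CPM, and in the 14 withdrawal libraries between 21.9 and 65.4 CPM. Both escalating libraries were thus above the other 21, the next being a non-escalating library, but they differed from each other by more than the lower of them differed from the rest. These values chose the gene and are given as a description without a test. The raw counts were 1275 and 4596 in the escalating libraries. Of 16908 genes tested, 2.4% had both escalating libraries above all 7 saline and non-escalating libraries. The share with both above all 21 others was not counted. The highest library of Trp53 stood at 2.95 times the next. A ratio at least as high was found for 92 of 11039 genes (0.833%). The highest library was that same escalating library for 9 of them and the other escalating library for 1.

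The mean level was 163 ± 114 CPM (SD, n = 2) in the escalating group, 52.2 ± 7.80 (n = 3) with saline and 47.6 ± 16.4 (n = 4) with non-escalating cocaine. The fitted log2 fold change of Trp53 was 1.64 against saline and 1.77 against non-escalating cocaine, and both comparisons use the same escalating libraries. Without escalating replicate 2 the values were 0.66 and 0.79, and without escalating replicate 1 they were 2.22 and 2.35, so 1 library moves the size more than 1.5 times.

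Wrap53, the head-to-head neighbour of Trp53 that encodes a protein of telomerase and Cajal body assembly, was not higher in the escalating libraries. Its level was 0.688 CPM in the escalating library with the most Trp53 and 4.97 in the other, against 0.251 to 8.55 in the saline and non-escalating libraries. RefSeq lists a pseudogene of Trp53 and another of Mdm4, and reads that fit both a gene and its pseudogene may have been lost or split, since the labels name no counting options.

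The genes whose level across libraries was most like that of Trp53 were Ttc27 (Pearson r = 0.76 over 23 purified libraries, after centring each library set), Usp27x (0.758), Mrps14 (0.717), Gphn (0.685) and Cstf2 (0.681), among 10363 genes compared. The escalating library with the most Trp53 carried much of this likeness. Without it, r fell to 0.435 for Ttc27, 0.337 for Mrps14 and 0.261 for Gphn, while Usp27x was at 0.548 (rank 50) and Cstf2 at 0.678 (rank 3). Ttc27 reached 566 CPM in that library, against 4.78 in the other escalating library and at most 27.2 in the remaining 21. The other escalating library stayed in, and there Usp27x was at 70.5 CPM against at most 39.0 in the same 21. Trp53 was chosen for its level in both escalating libraries, so this ranking favours genes high there and is given as a description. The known regulators and targets lay far down this ranking: r with Trp53 was 0.15 for Ccng1, 0.088 for Mdm2, -0.286 for Bax and -0.288 for Cdkn1a. Without the escalating library with the most Trp53 these became -0.029, 0.139, -0.043 and -0.016.

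Among the 9 other genes, none passed the test between escalating and saline libraries (edgeR quasi-likelihood test, Benjamini-Hochberg adjusted p under 0.05 over 16908 genes). No gene at all was called in that comparison (0%), 518 genes had an unadjusted p under 0.05, none of the 9 among them, and DESeq2 called 6 genes and limma voom 0. The comparison of escalating with non-escalating libraries also gave 0 calls in edgeR (0%), with 558 genes at an unadjusted p under 0.05 and none of the 9 among them, while DESeq2 called 11 genes and limma voom 0. In simulated counts with the same libraries, 10% of genes changed 4-fold and 0% of those changed 2-fold were recovered for escalating against saline. The changed genes all had a mean above 5 CPM, so these rates do not cover Bbc3 or Gadd45a. No difference between library sets was simulated.

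The inhibitors of p53 in both escalating libraries lay within the range of the 7 saline and non-escalating libraries. Mdm2, the ubiquitin ligase that is also a p53 target, was at 80.2 and 83.9 CPM, inside the span of 54.9 to 135 CPM in the 7 saline and non-escalating libraries. Its log2 fold change was 0.11 against saline with a 95% interval of -0.62 to 0.84, and -0.15 (-0.85 to 0.55) against non-escalating cocaine. Mdm4, the relative of Mdm2 that blocks p53 without ligase activity of its own, was at 156 and 179 CPM, inside the span of 103 to 220 CPM. Its log2 fold change was -0.11 (-1.01 to 0.79) against saline.

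The cell cycle targets had 1 escalating library each outside the range of the 7 saline and non-escalating libraries. The share of all genes with 1 escalating library so placed was not counted, so no result is read from it. Cdkn1a, which encodes the cyclin-dependent kinase inhibitor p21 and is the target most often used as a readout of p53, was at 21.8 and 38.2 CPM in the escalating libraries. The lower value came from the library with the most Trp53 and was below all 7 saline and non-escalating libraries, which ran from 23.5 to 73.2 CPM. Cdkn1a had the lowest p of the 9 genes against saline, with a log2 fold change of -0.45 ± 0.45 (SE, adjusted p = 1). Ccng1, the target that encodes cyclin G1, was at 15.05 CPM in escalating replicate 1 and 27.0 CPM in replicate 2, the latter just above the highest of the 7 others at 26.1 CPM.

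Bax, a pore-forming protein of the mitochondrial apoptosis pathway, was the only one of the 9 with both escalating libraries outside the range of the 7 saline and non-escalating libraries, and it was lower. It stood at 4.59 and 3.76 CPM, against 5.22, 5.76 and 7.88 with saline and 5.84, 6.69, 8.81 and 9.67 with non-escalating cocaine. Its log2 fold change was -0.89 ± 0.60 (SE) against non-escalating cocaine and did not pass (adjusted p = 1 in edgeR). Over the 16908 genes tested, 1.43% had both escalating libraries below all 7 others and 2.4% had both above.

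The other apoptosis, damage and metabolism genes had at least 1 escalating library inside the range of the 7 saline and non-escalating libraries. As above, the share of all genes with 1 escalating library outside it was not counted. Bbc3, which encodes the apoptosis activator PUMA, was at 2.28 and 3.23 CPM, within a span of 0.501 to 12.96 CPM. Gadd45a, a growth arrest and DNA damage gene, was at 0.0646 CPM (1 count), below all 7 others, and 1.69 CPM, inside their span of 0.378 to 2.29 CPM. Sesn1, a stress-induced regulator of growth signalling, was at 38.8 and 61.2 CPM, and Trp53inp1, a stress-induced protein of autophagy and cell death, at 21.1 and 25.8 CPM, both inside the span of the 7 other libraries. The interval of the log2 fold change against saline was -0.59 to 0.85 for Sesn1 and -1.54 to 1.08 for Trp53inp1, while for Bbc3 it ran from -2.99 to 2.38.

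**Figure D2:**
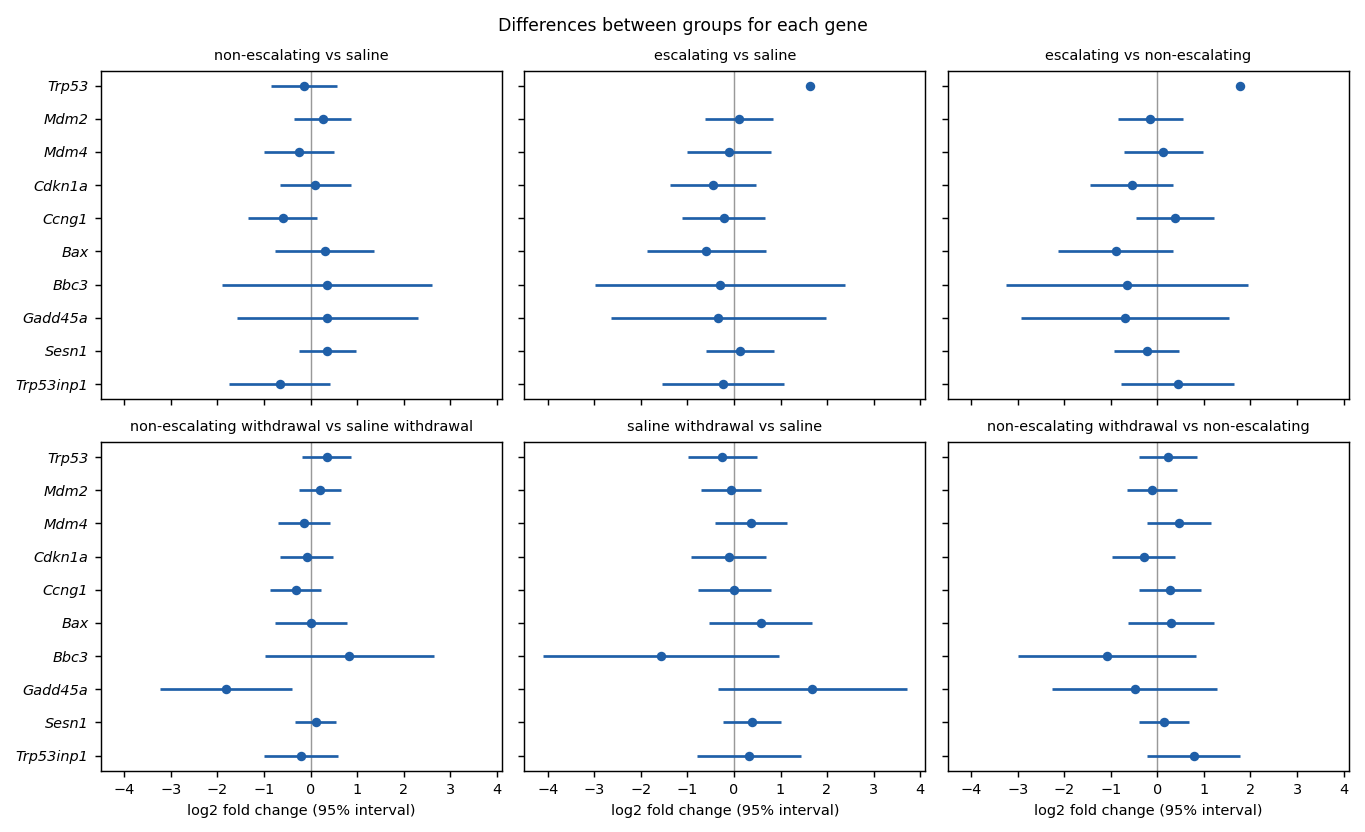
Log2 fold change of each gene in 6 comparisons between groups of purified libraries, with bars for the 95% interval from the joint edgeR fit. Trp53 is shown without an interval in the escalating comparisons because it was chosen there, and elsewhere only Gadd45a in non-escalating withdrawal against saline withdrawal has an interval (-3.23 to -0.39) that does not include 0.

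The rest of the p53 pathway was examined through a longer list. Of 78 listed regulators, relatives and targets, 73 could be tested in purified RNA and none was called in either escalating comparison. Their median log2 fold change was -0.01 against saline, with 35 up and 38 down, beside a median of -0.02 over all genes tested. Within the list, 11 cell cycle targets had 2 up and 9 down with a median of -1.43 against saline, and 5 up and 6 down with a median of -0.001 against non-escalating cocaine. Their values against saline ran from -7.26 to 0.66. Among the 12 listed, mean purified levels ran from 0.175 CPM for Psrc1 to 712 CPM for Zmat3. Gtse1, Trp53cor1, Phlda3, Rprm, Ptprv and Sfn were also at 3.65 CPM or less, so few counts lie behind much of this median. The medians against saline were 0.10 for 19 regulators, 0.20 for 14 apoptosis targets, -0.008 for 8 DNA repair targets, -0.09 for 10 stress and metabolism targets and 0.42 for 10 relatives of the genes described here. The targets with the lowest p against saline were Phlda3, a repressor of Akt signalling, Sfn, which encodes the checkpoint protein 14-3-3 sigma, and Dram1, an autophagy gene (adjusted p = 1 for each in edgeR). Phlda3 had 0 counts in both escalating libraries and 4, 17 and 52 counts in the saline libraries. One non-escalating library also had 0 counts of Phlda3, the others 15, 30 and 53. Sfn had 1 and 2 counts in the escalating libraries and 4 to 48 with saline, and Dram1 had 0 and 1 counts against 0, 4 and 39. Against non-escalating cocaine the median of the 73 genes was -0.08 with 31 up and 42 down, beside -0.02 over all genes, and the lowest p belonged to Phlda3, Sfn and the deubiquitinase Usp10 (0.81 ± 0.35, adjusted p = 1).

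Non-escalating cocaine was compared with saline without withdrawal, where 0 of the 10 genes and 0 of 16908 genes (0%) were called by edgeR, with 356 genes but none of the 10 at an unadjusted p under 0.05. DESeq2 called 3 genes and limma voom 0, none of them among the 10. Trp53 had a log2 fold change of -0.14 ± 0.34 (SE). Ccng1 had the lowest p: it was at 12.6, 13.97, 17.5 and 20.7 CPM with non-escalating cocaine and at 21.8, 25.6 and 26.1 CPM with saline. The 2 groups did not overlap for this gene, as for 1.77% of all genes in that direction, but the log2 fold change of -0.60 ± 0.36 did not pass (adjusted p = 1). Of the other pathway genes, 0 of 73 were called, and their median was -0.02 beside -0.002 over all genes. The lowest p belonged to Pidd1, a death domain protein, with 0, 0 and 1 counts in the saline libraries and 7 to 53 in the non-escalating ones (adjusted p = 1).

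After withdrawal, non-escalating cocaine was compared with saline in 9 and 5 libraries. No gene was called by edgeR (0%), 881 had an unadjusted p under 0.05, and DESeq2 called 1 gene, not one of the 10, and limma voom 0. Of the 10 genes 1 had an unadjusted p under 0.05, Gadd45a, which was at 2.25, 3.22, 4.75, 4.83 and 7.53 CPM after saline and between 0.149 and 2.64 CPM after cocaine, with a median of 1.16. Its log2 fold change was -1.81 ± 0.69 (SE), with an unadjusted p of 0.0148 and an adjusted p of 0.749 in the joint edgeR fit, on 2 to 135 counts per library.

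Gadd45a was also examined within each library set, without a test of the difference between sets. In set A the saline withdrawal libraries were at 3.22 and 7.53 CPM and the cocaine libraries at 0.149 to 1.16, without overlap, as for 11.7% of all genes in that direction, and the fit of set A alone gave -2.82 ± 1.21. In set B they were at 2.25, 4.75 and 4.83 against 1.11 to 2.64 CPM, which overlap, and the fit of set B alone gave -0.92 ± 0.66 (adjusted p = 0.236 and 1 for the 2 sets in edgeR). Without saline withdrawal set A replicate 1, the library with few D2 markers, the value was -1.32.

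Cell type markers moved alongside. In the same comparison all 8 D2 neuron markers were higher after cocaine (median log2 fold change 0.60) and all 11 endothelial and mural markers lower (median -1.01), none of them called. Summed D2 markers ran from 2065 to 7604 CPM after saline and from 4014 to 16690 after cocaine. Across the 23 purified libraries the level of Gadd45a fell with the summed D2 marker level (Pearson r = -0.697, adjusted permutation p = 0.00115; Spearman rho = -0.648, adjusted p = 0.00453), at -0.735 in set A, -0.391 in set B and -0.603 without the 2 libraries with the most extreme sums. With the share of reads outside genes as a covariate the log2 fold change of Gadd45a was -1.50 ± 0.69, and the part of the marker levels in it was not tested.

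Like Gadd45a, the other 9 genes overlapped between the withdrawal groups, and their log2 fold changes ran from -0.32 for Ccng1 to 0.84 for Bbc3. Trp53 was at 21.9 to 50.4 CPM after saline and 35.4 to 65.4 after cocaine, with a log2 fold change of 0.34 ± 0.26 (SE, adjusted p = 0.75). Among the 73 other pathway genes 0 were called and the median was -0.11, beside 0.01 over all genes. The 3 with the lowest p were all lower: the damage kinase Atr (-1.19 ± 0.45), the deacetylase Sirt1 (-0.75 ± 0.32) and Shisa5 (-0.75 ± 0.33), an apoptosis-related target (adjusted p = 0.749 for each).

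Withdrawal itself was compared within each treatment, where the groups without withdrawal are all in set A. Between saline withdrawal and saline, and between non-escalating withdrawal and non-escalating cocaine, edgeR called 0 genes (0% in both), with 884 and 763 genes but none of the 10 at an unadjusted p under 0.05. DESeq2 called 7 and 12 genes, none of them among the 10, and limma voom 0. The lowest p of the 10 was that of Gadd45a with saline, at 1.002, 1.07 and 1.26 CPM before the 5 withdrawal values given above, with which they did not overlap, as for 2.67% of all genes in that direction, and the log2 fold change was 1.69 ± 0.98 (adjusted p = 0.782), or 0.95 without saline withdrawal set A replicate 1. In that comparison all 8 D2 markers were lower (median -0.51) and all 11 endothelial and mural markers higher (median 1.43), none called. With cocaine it was that of Trp53inp1, at 7.08 to 29.6 CPM without withdrawal and 14.7 to 108 CPM after it, a log2 fold change of 0.78 ± 0.48 (adjusted p = 0.926). Trp53 was at -0.25 ± 0.36 with saline and 0.23 ± 0.30 with cocaine.

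The interaction of withdrawal and treatment was also fitted, to compare the withdrawal difference after cocaine with that after saline. It gave 0 calls in edgeR (0%), 344 genes at an unadjusted p under 0.05 and none of the 10 among them, and 2 genes in DESeq2 and 0 in limma voom. Gadd45a had the lowest p of the 10, at -2.17 ± 1.20 (SE, adjusted p = 1), and Trp53 was at 0.48 ± 0.43. The medians of the other pathway genes were 0.24 for withdrawal with saline, 0.27 with cocaine and -0.03 for the interaction, beside 0.08, 0.09 and 0.07 over all genes, with 0 called in each. They were 49 up and 24 down with saline, where D2 markers were lower and endothelial markers higher as given above. They were 51 up and 22 down with cocaine, where 6 of 8 D2 markers were lower (median -0.12) and all 11 endothelial and mural markers higher (median 0.53). The part of the markers in these shifts was not tested. The lowest p with saline belonged to Hipk2 (1.34 ± 0.49), a kinase that phosphorylates p53, Atm (0.998 ± 0.41), the kinase that signals double-strand breaks, and Trp53inp2 (0.61 ± 0.27), a relative of Trp53inp1, with adjusted p = 0.782 for each. With cocaine it belonged to Usp10 (0.66 ± 0.28), and for the interaction to Sirt1 (-1.38 ± 0.56), Gadd45g (-2.96 ± 1.23), a relative of Gadd45a, and the apoptosis gene Bid (3.85 ± 1.69), none of which passed.

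Purified RNA was set against input RNA in the 3 conditions that have an input, 12 purified libraries and 3 inputs. Here 2 of the 10 genes were called, Trp53inp1 higher and Ccng1 lower, against 7.38% of 15610 genes (559 higher and 593 lower). DESeq2 also called both, and Bax, limma voom called Ccng1 but not Trp53inp1 (2.68, adjusted p = 0.0886), and with a replicate block neither passed. Trp53inp1 was at 23.6, 25.5 and 33.3 CPM in purified saline libraries against 8.51 in the input. With non-escalating cocaine it was at 7.08, 10.6, 22.1 and 29.6 CPM against 1.69, and after saline withdrawal at 27.9, 34.2, 40.0, 50.8 and 85.5 CPM against 1.14. Every purified library was above the input of its own condition, as for 5.28% of all genes. The log2 fold change was 3.05 ± 0.69 (SE, adjusted p = 0.0157 in edgeR), on inputs of 5 to 55 counts.

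Ccng1 went the other way in each condition. The inputs had 52.0, 60.6 and 68.0 CPM, all above the highest purified library of any group at 47.2 CPM, as for 2.13% of all genes. The log2 fold change was -1.32 ± 0.26 (SE, adjusted p = 0.00812 in edgeR). The proapoptotic gene Bax was also lower in purified RNA at -1.35 ± 0.46, but did not pass (adjusted p = 0.0834). Its saline input at 6.96 CPM lay within the purified saline libraries, while the inputs of non-escalating cocaine (22.15 CPM) and saline withdrawal (25.0 CPM) were above theirs.

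Each call rests on 3 inputs. Without the non-escalating input, Ccng1 was at -0.95 (adjusted p = 0.128) and Trp53inp1 at 2.88 (adjusted p = 0.0997), and without the saline withdrawal input Trp53inp1 was at 2.39 (adjusted p = 0.0605), so neither call stood without the first and 1 of the 2 was lost without the second. Across the 23 purified libraries Trp53inp1 had r = 0.081 with the summed endothelial markers (rho = 0.071; 0.319 in set A, 0.044 in set B) and r = -0.397 with the summed D2 markers (rho = -0.403; -0.32 in set A, -0.476 in set B), with adjusted permutation p = 0.794 and 0.182, and the part of either in its difference from input was not tested. The remaining 7 genes were not called, with log2 fold changes from -0.36 for Mdm4 to 0.17 for Bbc3, and Trp53 was at -0.02 with a 95% interval of -0.79 to 0.76.

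**Figure D3:**
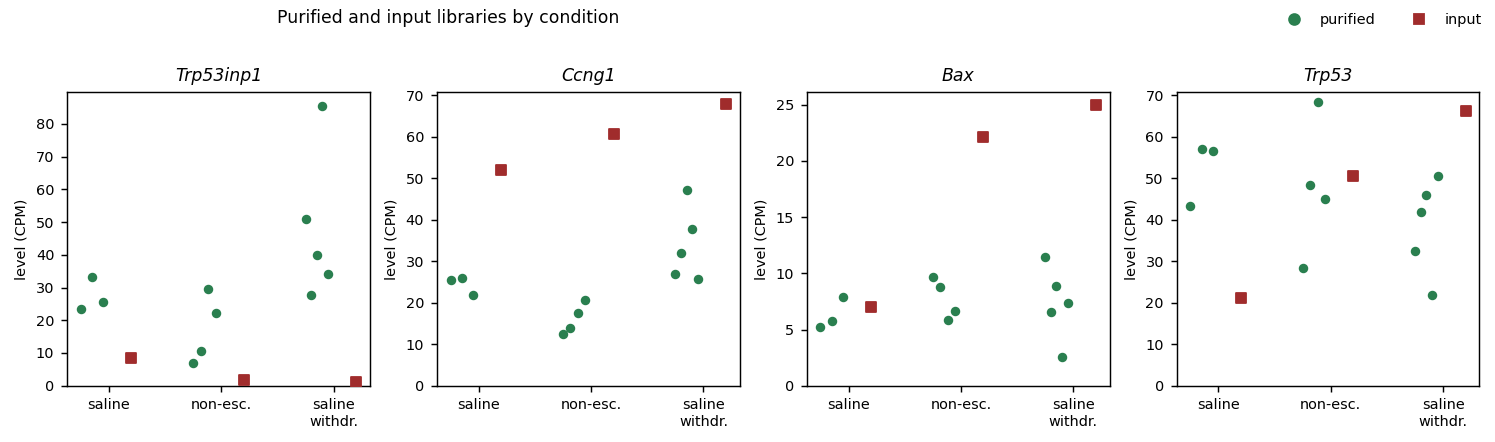
Levels (CPM, linear axes from 0) of Trp53inp1, Ccng1, Bax and Trp53 in purified libraries (circles) and the single input (square) of each of 3 conditions. Trp53inp1 is higher in every purified library than in its input, Ccng1 is lower in every one, the Bax inputs lie within or above the purified range, and the Trp53 inputs lie below, within and above it.

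Of the 72 other pathway genes tested against input, 3 were called, a share below the 7.38% of all genes. Prkab1, a subunit of the energy sensor AMPK, was higher in purified RNA (2.40 ± 0.69, adjusted p = 0.0456 in edgeR), at 6.93 to 35.0 CPM against 0 to 10.99 CPM. Trp53bp1, a DNA repair scaffold that binds p53, was lower (-1.13 ± 0.26, adjusted p = 0.0186), at 45.0 to 110 CPM in purified RNA and 96.2 to 272 CPM in the inputs. Psrc1, a cell cycle target, was lower too (-5.40 ± 1.44, adjusted p = 0.0363), at 0 to 1.28 CPM in purified RNA, but it ranged from 0 to 30.3 CPM among the 3 inputs. Over these 72 genes the median was 0.17 with 44 up and 28 down, beside 0.16 over all genes.

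Mdm4 moved with the share of reads outside genes in the purified libraries. Its level ran from 103 to 393 CPM, and across the 23 purified libraries it rose with the share of uniquely aligned reads that were assigned to no gene, a share that itself ran from 21.2% to 70.7%. The correlation of log2 CPM with this share was r = 0.909 (Spearman rho = 0.913). The permutation p was 1e-05 for each, the smallest that 100000 resamples can give, and 0.0001 after adjustment over the 10 genes. Within set A it reached 0.928, within set B 0.924, and 0.888 once the 2 libraries of most unusual share were dropped. Only 27 of 11039 genes (0.245%) had an r as high, and the median over these genes was -0.18.

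Marker levels moved with the same measure. The share of reads outside genes rose with the summed endothelial and mural markers (r = 0.80, rho = 0.866) and fell with the summed D2 markers (r = -0.901, rho = -0.862), with adjusted permutation p of 0.000147 and 0.00011 for r. Mdm4 fell with the D2 markers at r = -0.85 (rho = -0.847, adjusted permutation p = 0.00011), with -0.861 within set A, -0.799 within set B and -0.751 without the 2 most extreme libraries. With the endothelial markers it rose at r = 0.685 (rho = 0.76, adjusted permutation p = 0.00145), with 0.941 within set A, 0.425 within set B and 0.781 without the 2 most extreme. In the inputs Mdm4 was at 190, 234 and 251 CPM with 27.3% to 31.6% of reads outside genes.

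Of the other 9 genes none passed for the share of reads outside genes, the nearest being Gadd45a (r = 0.488, rho = 0.453, adjusted permutation p = 0.0895), and the rest ran from -0.378 for Bbc3 to 0.368 for Trp53inp1. Trp53 was at r = -0.165 and the escalating libraries were close to the middle, at 32.8% and 34.1%. Mdm2 fell with the endothelial markers (r = -0.563, adjusted permutation p = 0.0197; rho = -0.456, adjusted p = 0.111), at -0.523 in set A, -0.74 in set B and -0.381 without the 2 most extreme libraries. These relations with markers were 22 in all, and the part of any of these measures in the level of Mdm4 or Mdm2 was not tested.

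Pairs of the 10 genes were compared across the 23 purified libraries after centring each library set, 45 pairs in all, of which 23 had a positive correlation. Only Ccng1 and Trp53inp1 passed, with r = 0.712 (adjusted permutation p = 0.00675) and Spearman rho = 0.675 (adjusted p = 0.0234). It was 0.817 in set A, 0.50 in set B and 0.688 once the 2 most extreme libraries were dropped. These are the same 2 genes that differed between purified and input RNA, in opposite directions. Ccng1 was lowest, at 11.9 to 13.97 CPM, in 4 libraries where Trp53inp1 was between 7.08 and 14.9 CPM. No correlation of Trp53 with another of the genes passed, with r between -0.288 for Cdkn1a and 0.283 for Bbc3. Once the 2 most extreme libraries were dropped, r ran from -0.509 for Gadd45a to 0.443 for Bbc3, with Cdkn1a at 0.02. For Trp53 and Bax the pooled r of -0.286 (adjusted permutation p = 0.495; Spearman rho = -0.238) stood beside -0.577 in set A and 0.916 in set B, a difference that was not tested. It was 0.047 once the 2 most extreme libraries were dropped.

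**Figure D4:**
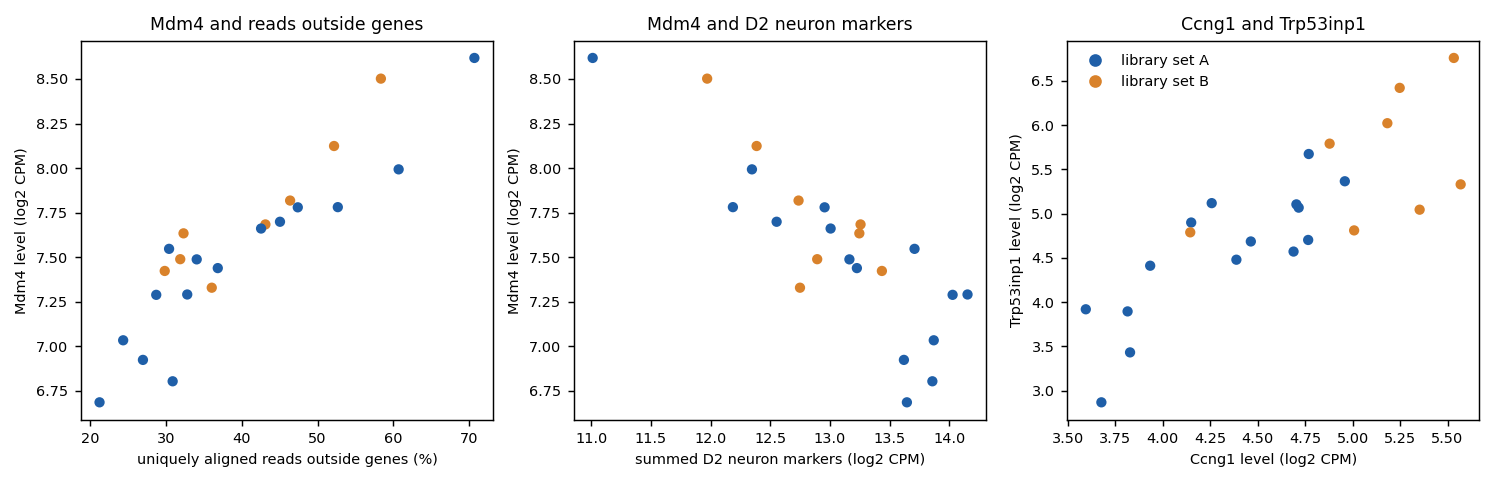
Left, Mdm4 level (log2 CPM) against the share of reads assigned to no gene (%); middle, Mdm4 against the summed D2 neuron markers (log2 CPM); right, Trp53inp1 against Ccng1 (log2 CPM), each point 1 of 23 purified libraries coloured by library set and not centred. Mdm4 rises with the share (r = 0.909) and falls with the D2 markers (r = -0.85), and Ccng1 and Trp53inp1 rise together (r = 0.712 after centring each set).

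The genes most like Cdkn1a across libraries were Slc18a3 (r = 0.731), the vesicular acetylcholine transporter, Dner (0.691), Trak2 (0.69), Ankrd13d (0.676) and Farp2 (0.675), over 23 libraries and 10363 genes. Slc18a3 was low, between 0 and 22.7 CPM. Of the 10 genes the one most like Cdkn1a was Bax (r = 0.269, rank 1089), at 0.164 and rank 2743 without escalating replicate 2.

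The library sets were compared through the withdrawal groups, the only groups with both. None of the 10 genes passed in edgeR, while 4.7% of 16908 genes did, and 4 of the 10 had an unadjusted p under 0.05, as did 3415 genes (20.2%). The log2 difference of set B from set A was 0.66 ± 0.21 (SE, adjusted p = 0.0736) for Mdm2, 0.75 ± 0.26 (adjusted p = 0.0979) for Ccng1, 0.83 ± 0.38 (adjusted p = 0.226) for Trp53inp1 and -0.69 ± 0.26 (adjusted p = 0.134) for Cdkn1a. Trp53 was at -0.31 ± 0.24. DESeq2 called Mdm2 and Cdkn1a, and limma voom called Cdkn1a. After cocaine withdrawal Mdm2 was at 59.0 to 105 CPM in set A and 112 to 200 CPM in set B, which did not overlap, as for 3.24% of all genes in that direction, and after saline withdrawal at 73.4 and 78.1 against 74.7, 125 and 134 CPM. Cdkn1a after saline withdrawal was at 27.7 and 50.3 CPM in set A against 19.9, 23.9 and 24.8 in set B, without overlap, as for 26.4% of all genes in that direction. After cocaine withdrawal set A (21.8 to 47.5 CPM) and set B (18.6 to 27.7 CPM) overlapped, and without saline withdrawal set A replicate 2 its difference between sets was -0.56 (adjusted p = 0.303). Among the other pathway genes 1 of 73 was called, Trp53inp2, lower in set B (-0.70 ± 0.18, adjusted p = 0.0271).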

How the data were processed

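The authors deposited 1 table per library of raw counts by gene symbol, made with STAR 2.0.0e on mm10 and HTSeq, per the submitters' processing notes. Annotation release, strand setting and feature type: not given in the sources used here. Tables of 2 annotations (32531 and 32657 genes; the smaller in set B plus replicate 2 of saline withdrawal in set A) were joined to 31977 genes, which held 99.5% to 99.9% of gene counts. The 5 closing entries that name no gene served only for the share of reads outside genes.

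Purified libraries were fitted together in edgeR 4.0.16 (R 4.3.3; TMM, filterByExpr, quasi-likelihood F test) with terms for group and library set: 16908 genes, 17 residual degrees of freedom. Purified and input libraries of 3 conditions were fitted apart, with condition and set (15610 genes, 10 degrees of freedom). p-values were adjusted by Benjamini-Hochberg over all genes, threshold 0.05. Intervals are 95%. CPM used TMM-scaled sizes, and log2 CPM a prior count of 2. Correlations used 100000 permutations (scipy 1.17.1), all orders for the 8 set B libraries. Alternatives were DESeq2 1.42.0, limma 3.58.1 voom, RLE factors, no filter, a replicate block, the share as covariate, single sets, saline withdrawal set A replicate 2 as its own set, compared groups alone and leaving out each library. Relations with marker sums were added after seeing the data.

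In each comparison Trp53 and genes with an unadjusted p under 0.05 (else the lowest p) are named with their fold change, and pathway genes if called or among the 3 lowest p. The genes and lists were chosen with earlier results of these data known. Library pairs within groups (56) had a chi-square per degree of freedom of at least 11.8, so no deposited library repeated another of its group within counting noise; this does not settle what the copy marks in the titles mean. Tests were run on simulated data first: 65% of 4-fold changes were recovered after withdrawal and 50% against input, among genes with a mean above 5 CPM. Promoter and coordinate values are from RefSeq and GENCODE (GRCm38).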

Additional observations from a re-analysis of the deposited data

Results flagged for a closer look

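In 30 combinations of a gene and a group of 4 to 10 libraries, 3 had a highest library far from the rest of its group, and chance flags about 1 in 20 groups. Mdm4 was at 392.6 CPM in saline withdrawal set A replicate 1, the next library of that group being at 225.5 CPM, and this is the library with the most reads outside genes (70.7%) and the fewest D2 markers (2065 CPM). Cdkn1a was at 50.34 CPM in saline withdrawal set A replicate 2, the next being at 27.67 CPM. Bbc3 was at 12.96 CPM in non-escalating replicate 2, the next being at 1.79 CPM.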

How the results depend on the processing

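Outside the settings that leave out 1 library, the results compared were values of single genes and numbers of genes called. A change can therefore be counted under both. Of these results 9 were marked stronger, 5 weaker and 2 reversed in direction. The rest were marked the same, which includes the value of Trp53 between escalating and non-escalating libraries, although DESeq2 called it. DESeq2 called 1 of the genes between escalating and non-escalating libraries, Trp53, which was chosen there, and 2 (Mdm2 and Cdkn1a) between the library sets, where limma voom called 1 (Cdkn1a). Against input, limma voom called 1 gene (Ccng1; Trp53inp1 2.68, adjusted p = 0.0886) and DESeq2 also called Bax. With limma voom Trp53 turned to -0.002 for cocaine withdrawal against cocaine and to 0.463 against input. The relation with reads outside genes passed for 1 gene as reported, for 2 once the 2 libraries of most unusual share were dropped (Mdm4 and Trp53inp1) and for 2 with RLE factors (Mdm4 and Gadd45a). Leaving out each library in turn, Trp53 ran from -0.363 to 0.036 for non-escalating cocaine against saline, turning without non-escalating replicate 1, and from -0.475 to 0.487 against input. Genes called ran from 0 to 1 for escalating against non-escalating (Trp53, without escalating replicate 1, where the lone library is assumed to vary like the other groups and the value is the one that chose the gene), from 0 to 2 between library sets (Mdm2 and Ccng1, without non-escalating withdrawal set A replicate 3) and from 0 to 2 against input. Over all genes, calls between sets rose from 794 to 1921 with DESeq2 and 2706 with limma voom. Against input they rose from 1152 to 2950 with DESeq2 and fell to 919 with limma voom. Without the low-count filter they were 581 between sets and 1479 against input. The causes were not tested.

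Replicate numbers showed no sign of pairing the libraries: same-number libraries of different groups had a median residual correlation of -0.088 in 25 pairs, against -0.015 in 78 others. Single correlations ran from -0.723 to 0.647 and from -0.734 to 0.753, a spread too wide for the medians to exclude pairing. With the replicate block 0 of the 10 genes (46 of all genes) were called against input (Ccng1 -1.50, adjusted p = 0.139; Trp53inp1 2.38, adjusted p = 0.171), and the block changed no other call. Low counts limit Bbc3 and Gadd45a most, and 2 escalating libraries and 3 inputs limit every comparison that uses them.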
